A study of Mus musculus with 2 samples.

Results

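Genes of MHC class II antigen presentation and of B cells were examined in 2 T cell lymphomas, 1 from a Peyer's patch of a 26-week-old mouse and 1 from the thymus of a 30-week-old mouse. Peyer's patches are lymphoid follicles in the wall of the intestine, and these tumours are called the gut and the thymic lymphoma. The 8 genes were Cd74, H2-Aa, H2-Ab1, H2-Ob, Cd79b, Cd72, Igkc and Ighm, found by symbol among the 8249 genes of the expression table, and all 8 were measured in both tumours. They were selected on their FPKM in these 2 tumours, so every difference between the tumours is a description. Both mice were of the L-DKO strain, described in the series title as having raised E protein levels, E proteins being transcription factors that bind E boxes and guide lymphocyte development; the alleles of the strain are not spelled out in the labels. Both lymphomas were negative for the CD1d tetramer, the reagent that stains invariant natural killer T cells, and neither was treated. Per the protocols RNA came from lysed tumour, whereas the design text speaks of sorted cells, so how many non-tumour cells contributed is unknown. There was 1 library per tumour, so no difference has a replicate check, no test or error could be given, and tumour site, mouse and age cannot be told apart.

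MHC class II molecules are pairs of an alpha and a beta chain that show peptides from the endosome to CD4 T cells. They are made by B cells, dendritic cells, macrophages and thymic epithelium, and mouse T cells are generally taken to lack them. The invariant chain holds the peptide groove closed during transport, the DM proteins exchange its remnant for peptide, and the DO proteins, found mainly in B cells and thymic epithelium, restrain DM. B cells are known by immunoglobulin on the surface, held by the signalling chains CD79A and CD79B.

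Class II promoters carry an X box, bound by the RFX complex, and downstream of it a Y box, bound by NF-Y, and both are read together by the coactivator CIITA. Promoter windows of 300 bases, from 250 bases before to 50 after the start of transcription, were taken from RefSeq on build GRCm38.p6 for the members with an entry, which were 3 of 8, and for H2-Eb1, another class II gene. They are shown because H2-Aa and H2-Ob went opposite ways between the tumours. Capitals mark a core of the X box, GCAAC, followed on the same strand by a core of the Y box, ATTGG. The windows are chr17:34287774-34288073 on the minus strand for H2-Aa, chr17:34305617-34305916 on the plus strand for H2-Eb1, chr17:34238655-34238954 on the plus strand for H2-Ob and chr4:43454577-43454876 on the minus strand for Cd72.
H2-Aa: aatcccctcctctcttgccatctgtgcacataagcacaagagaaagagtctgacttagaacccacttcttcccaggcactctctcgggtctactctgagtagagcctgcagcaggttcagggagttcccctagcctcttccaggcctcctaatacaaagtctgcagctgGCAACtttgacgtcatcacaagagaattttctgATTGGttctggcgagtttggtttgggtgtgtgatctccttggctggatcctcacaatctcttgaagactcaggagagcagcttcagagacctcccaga
H2-Eb1: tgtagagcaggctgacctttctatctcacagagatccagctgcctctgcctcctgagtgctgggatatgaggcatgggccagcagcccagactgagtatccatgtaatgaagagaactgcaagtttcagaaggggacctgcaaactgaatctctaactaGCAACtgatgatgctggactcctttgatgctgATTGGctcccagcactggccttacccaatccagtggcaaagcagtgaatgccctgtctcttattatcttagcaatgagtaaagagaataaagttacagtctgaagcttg
H2-Ob: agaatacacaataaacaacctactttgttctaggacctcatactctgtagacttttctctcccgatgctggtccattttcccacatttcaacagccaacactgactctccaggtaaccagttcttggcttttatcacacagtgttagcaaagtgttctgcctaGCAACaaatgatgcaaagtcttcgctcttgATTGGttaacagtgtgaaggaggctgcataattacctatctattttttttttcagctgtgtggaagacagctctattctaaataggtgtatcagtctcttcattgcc
Cd72: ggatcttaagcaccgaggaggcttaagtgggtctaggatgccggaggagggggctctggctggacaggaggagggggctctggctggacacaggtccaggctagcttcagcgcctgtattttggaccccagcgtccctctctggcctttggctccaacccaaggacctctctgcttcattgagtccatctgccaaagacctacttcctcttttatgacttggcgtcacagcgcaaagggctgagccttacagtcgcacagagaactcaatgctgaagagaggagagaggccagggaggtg

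All 3 class II windows held the pair of cores in the same order. Between the cores lay 28 bases in H2-Aa, 27 in H2-Eb1 and 25 in H2-Ob, and the Y box core began 48, 59 and 57 bases before the start. The letters of the X box core were chosen after these sequences were seen. On either strand GCAAC occurred in 35.2% and ATTGG in 37.4% of the 32851 RefSeq promoter windows, whereas the pair on the gene's strand with 20 to 40 bases between occurred in 154 windows, or 0.469%. Cd72 had neither core. The octamer ATTTGCAT, a promoter element of immunoglobulin genes, was in none of the 4 windows and in 1.74% of all. An E box written as CAGNTG, searched on both strands, was in each of the 4 windows, and in 51.4% of all windows. In H2-Eb1 the E box nearest to the start overlapped the X box core. These matches describe letters in a window and not bound sites. In gene order on chromosome 17 of the GENCODE M21 annotation, H2-Ob, H2-Ab1, H2-Aa and H2-Eb1 follow each other with 0 other protein-coding genes between them.

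**Figure D1:**
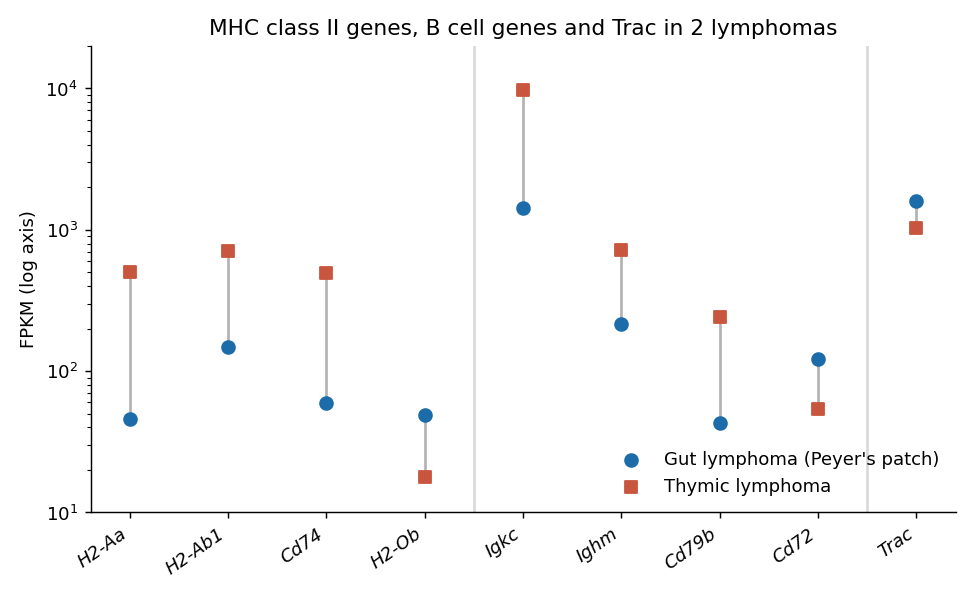
FPKM on a log axis of the 8 genes and of the T cell gene Trac, with 1 point per tumour joined by a line. Squares (thymic lymphoma) lie above circles (gut lymphoma) for 6 of the 8 genes, and below for H2-Ob, Cd72 and Trac.

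Of the 8 genes, 6 were higher in the thymic lymphoma and 2, H2-Ob and Cd72, in the gut lymphoma. Of 8245 genes, 4007 were higher in the thymic and 4238 in the gut lymphoma. Levels are FPKM, that is, sequenced fragments per length of transcript and per mapped fragments of the library, which allows levels of different genes to be compared. The deposited values were taken to be log2(FPKM + 1), and this reading was inferred and not stated by any source. Each difference is the gut minus the thymic value on that log2 scale, and genes past 4-fold had a difference of 2 or more in size. By this count 5 of the 8 genes were past 4-fold toward the thymic lymphoma, where 12.0% of 8245 genes were, and 0 toward the gut lymphoma, where 7.84% were. The median difference of the 8 genes was -2.35, and that of all genes 0.05. With both totals made equal, 3 of the 8 (H2-Aa, Cd74 and Igkc) remained past 4-fold toward the thymic lymphoma, where 7.77% of all genes then were, and 0 toward the gut lymphoma, where 14.5% were. H2-Ab1 and Cd79b fell short, and the median of all genes became 0.57. That scaling also turned the split of all genes past 4-fold from 646 toward the gut and 991 toward the thymic lymphoma to 1197 and 641, and the authors' standard scores gave 1218 and 624. At a threshold of 2-fold 6 of the 8 genes were apart toward the thymic lymphoma (25.5% of all genes) and 2 toward the gut lymphoma (24.7%), and at 8-fold 2 toward the thymic lymphoma (5.07%) and 0 toward the gut lymphoma (165 of 8245 genes). Both shares count genes at 1 FPKM or more in either lymphoma, as all 8 were. Because these are bulk samples, fewer cells of a type and less RNA per cell cannot be told apart.

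The classical class II chains were far higher in the thymic lymphoma. H2-Aa, the alpha chain of I-A, was at 45.9 FPKM in the gut lymphoma and 502 in the thymic lymphoma, a 10.9-fold ratio and a difference of -3.42. It was the widest difference among the 8 genes, and 269 other genes of the table lay further toward the thymic lymphoma. H2-Ab1, the beta chain of I-A, was at 149 and 706 FPKM, a 4.73-fold ratio and a difference of -2.23. The product of both genes is a single heterodimer, yet the ratio of H2-Aa to H2-Ab1 was 0.307 in the gut lymphoma and 0.710 in the thymic lymphoma. H2-Eb1, the beta chain of I-E and not among the 8 genes, was at 32.9 and 155 FPKM, a difference of -2.20. Its ratio to H2-Ab1 was 0.221 in the gut lymphoma and 0.220 in the thymic lymphoma. The beta chains thus stood in nearly equal proportion in both libraries, and the alpha chain did not.

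The invariant chain followed the classical chains. Cd74 was at 59.2 FPKM in the gut lymphoma and 494 in the thymic lymphoma, an 8.34-fold ratio and a difference of -3.04. It stood close to H2-Aa in both libraries, with a ratio to it of 1.29 and 0.984. By rank of level among the 8249 genes Cd74 moved from 2677 in the gut lymphoma to 303 in the thymic lymphoma, and H2-Aa from 3214 to 296.

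H2-Ob, the beta chain of DO, went the other way. It was at 49.1 FPKM in the gut lymphoma and 17.8 in the thymic lymphoma, a 2.77-fold ratio and a difference of 1.42, short of 4-fold. In the gut lymphoma H2-Ob was therefore as high as H2-Aa, at a ratio of 0.830 to Cd74, whereas in the thymic lymphoma that ratio was 0.0360. The differences of H2-Aa and H2-Ob were 4.84 apart on the log2 scale. The partner chain H2-Oa and the DM genes were looked up by symbol but were not in the expression table. Throughout, measured means present in that table. A gene not measured may have been sequenced and left out of it, for example for a low level.

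**Figure D2:**
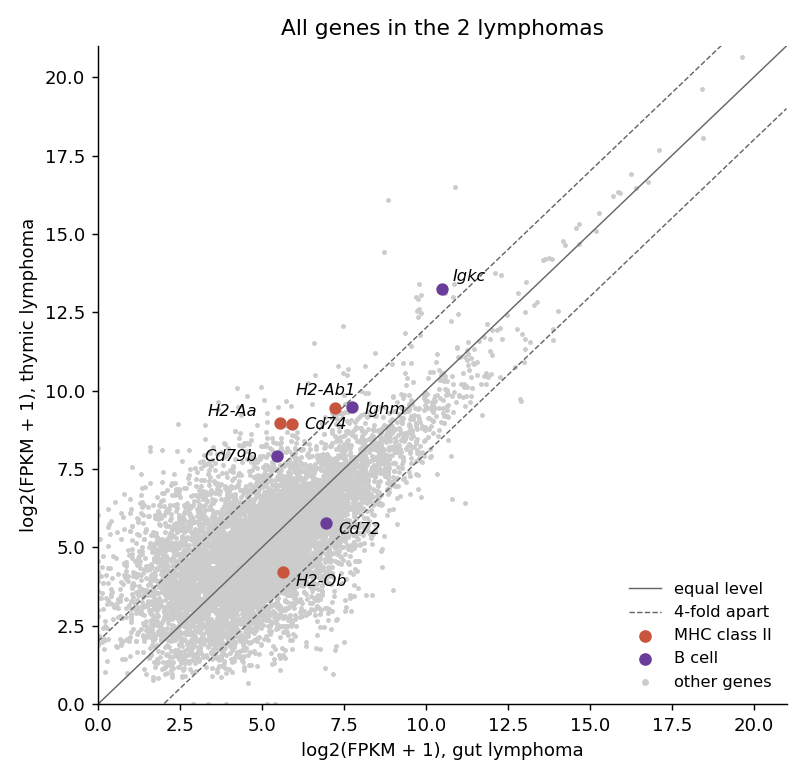
Each point is a gene, with log2(FPKM + 1) in the gut lymphoma on the x axis and in the thymic lymphoma on the y axis; coloured points are the 8 genes, the solid line marks equal levels and the dashed lines 4-fold. H2-Aa, Cd74, H2-Ab1, Cd79b and Igkc lie above the upper dashed line, Ighm just below it, and Cd72 and H2-Ob below the line of equal levels.

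Immunoglobulin constant regions were abundant in both tumours. Igkc, the constant region of the kappa light chain, was at 1428 FPKM in the gut lymphoma and 9811 in the thymic lymphoma, a 6.87-fold ratio and a difference of -2.78. It ranked 131st of 8249 genes by level in the gut lymphoma and 30th in the thymic lymphoma, the highest rank of the 8 genes in each. Ighm, the constant region of the mu heavy chain, was at 214 and 716 FPKM, a 3.34-fold ratio and a difference of -1.74, short of 4-fold. The kappa constant region exceeded that of mu by 6.66-fold in the gut lymphoma and by 13.7-fold in the thymic lymphoma. No other immunoglobulin segment was analysed here, so clonality was not examined.

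The surface genes of B cells were split. Cd79b, the signalling chain of the B cell receptor, was at 42.9 FPKM in the gut lymphoma and 242 in the thymic lymphoma, a 5.64-fold ratio and a difference of -2.47. Cd72, an inhibitory surface protein of B cells that is not part of the B cell receptor, was at 122 and 53.5 FPKM. This was a 2.28-fold ratio and a difference of 1.17 in the opposite direction. Cd72 thus exceeded Cd79b by 2.85-fold in the gut lymphoma and was at 0.221 of it in the thymic lymphoma. Igkc kept a closer proportion to Cd79b, at 33.3 and 40.6 times its FPKM. In order of level the 8 genes ran Igkc, Ighm, H2-Ab1, Cd72, Cd74, H2-Ob, H2-Aa and Cd79b in the gut lymphoma, and Igkc, Ighm, H2-Ab1, H2-Aa, Cd74, Cd79b, Cd72 and H2-Ob in the thymic lymphoma. With 1 library per tumour, the order of neighbours with close levels, such as H2-Aa and Cd74 or Ighm and H2-Ab1 in the thymic lymphoma, is not settled.

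Levels were then set against Trac, which encodes the constant part of the T cell receptor alpha chain and was at 1599 FPKM in the gut lymphoma and 1038 in the thymic lymphoma. The ratio of Igkc to Trac was 0.893 in the gut lymphoma and 9.45 in the thymic lymphoma. Kappa light chain RNA was thus below Trac in the former and far above it in the latter. H2-Aa was at 2.87% of Trac in the gut lymphoma and 48.3% in the thymic lymphoma, a 16.9-fold change of the ratio. Cd74 was at 3.70% and 47.6% of Trac, H2-Ab1 at 9.34% and 68.0%, Ighm at 13.4% and 69.0% and Cd79b at 2.68% and 23.3%. For Cd72 the values were 7.63% and 5.16%, and for H2-Ob 3.07% and 1.71%. Relative to Trac 6 of the 8 genes were past 4-fold toward the thymic lymphoma, where 20.8% of all genes were, and 0 toward the gut lymphoma, where 4.49% were. Trac itself was higher in the gut lymphoma, which shifts every such ratio by 0.62 on the log2 scale.

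Another T cell reference shifts the log2 ratio of every gene by the same amount. The 7 other references were Cd3d, Cd3e, Cd3g, Cd247, Lck, Thy1 and the geometric mean of the 19 genes listed for T cell receptor chains and signalling. Unlike with Trac, Igkc was above each of these 7 in both lymphomas. In the gut lymphoma its ratio ran from 1.40 to Cd3g to 15.1 to Cd247. H2-Aa, H2-Ab1, Cd74, Cd79b, Igkc and Ighm were lower in the gut lymphoma against each of the 8 references. The log2 difference of the ratio ran from -5.87 to -1.75 for H2-Aa, from -5.48 to -1.35 for Cd74 and from -4.16 to -0.04 for Ighm. The end nearest to 0 came in each case from Cd3e, the T cell reference that was higher in the thymic lymphoma (172 and 561 FPKM), and against Cd3e 0 of the 8 genes were past 4-fold toward the thymic lymphoma, where 3.77% of all genes were. H2-Ob and Cd72 were past it toward the gut lymphoma against Cd3e, as 43.4% of all genes were. H2-Ob, which lay nearer to 0, changed direction with the reference, from -0.95 against Thy1 to 3.17 against Cd3e, and so did Cd72, from -1.23 to 2.89.

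**Figure D3:**
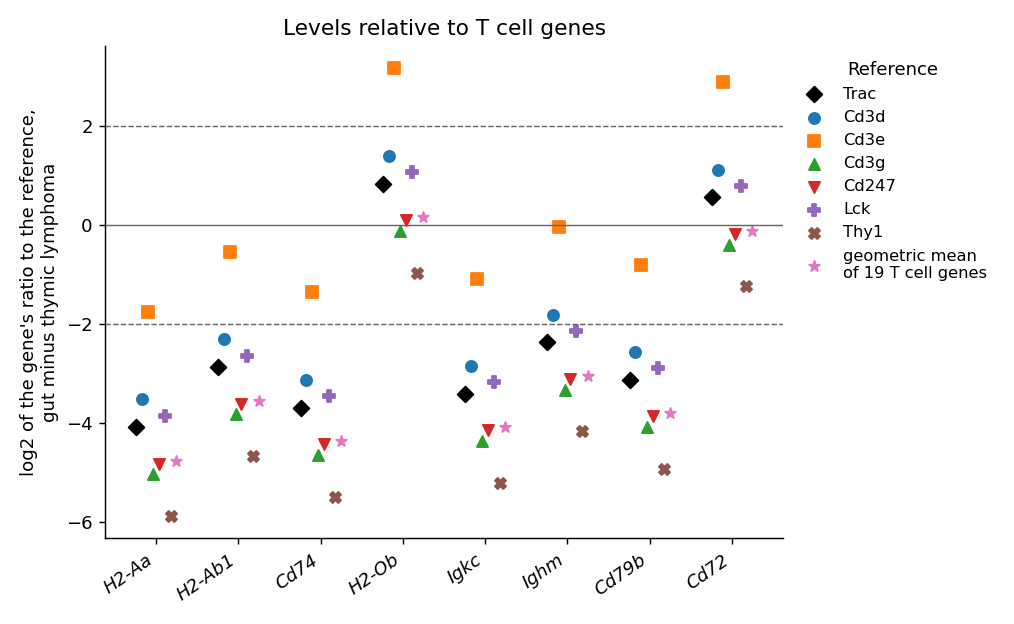
For each of the 8 genes, the log2 of its FPKM ratio to a T cell reference gene in the gut lymphoma minus that in the thymic lymphoma, with 1 symbol per reference; dashed lines mark 4-fold. For 6 genes every symbol lies below 0, from -5.87 to -0.04, while for H2-Ob and Cd72 the symbols fall on both sides of 0.

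Regulators and processing enzymes of the class II pathway had smaller median differences than the chains. For every list below, 12.0% of all 8245 genes were past 4-fold toward the thymic lymphoma and 7.84% toward the gut lymphoma. Of all 8245 genes 4238 lay above 0 and 4007 below. Of the 8 listed class II transcription factors 7 were measured, with a median difference of -0.36, and 1 was at least 4-fold apart. This was Rfxank, a subunit of the RFX complex, at 4.19 FPKM in the gut lymphoma and 31.4 in the thymic lymphoma. Its partners in that complex, Rfx5 (14.1 and 17.1 FPKM) and Rfxap (43.7 and 56.2), lay close together in both tumours. The NF-Y subunit genes split, with Nfya at 91.7 and 52.9 FPKM, Nfyb at 42.9 and 102 and Nfyc at 5.51 and 11.8. Ciita was listed but was not among the 7 measured. Of the 11 listed genes of processing and turnover 6 were measured and 0 were 4-fold apart in either direction, with a median of -0.01. Ctss, the cathepsin that trims the invariant chain, was at 101 and 230 FPKM, and the endosomal protease Lgmn at 310 and 120. The endosomal thiol reductase Ifi30 was nearly level, at 249 and 230 FPKM.

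Few other B cell genes were in the expression table, and whether absent ones were left out for a low level is not known. Of 27 listed genes of B cell identity 6 were measured, and Cd79b and Cd72 were among these. Of the other 4 genes all lay below 0, with a median of -1.78, and 2 were past 4-fold toward the thymic lymphoma (12.0% of all genes). These were Pou2af1, the octamer coactivator of B cells, at 26.0 FPKM in the gut lymphoma and 192 in the thymic lymphoma, and Tnfrsf13b, which encodes the receptor TACI, at 7.57 and 60.7. Cd37, a tetraspanin of mature B cells, was at 49.4 and 82.1 FPKM. The summed FPKM of these 4 genes was 130.2 and 392. The B cell genes Ms4a1, Cd79a, Pax5 and Ebf1 were listed but were not among the measured genes. Whether B cells were present was not tested. Of the 20 listed genes of B cell receptor signalling 14 were measured, with a median of 0.43. Past 4-fold were 3 toward the thymic lymphoma (12.0% of all genes) and 1 toward the gut lymphoma (7.84%). The former were the kinase Syk (2.74 and 21.4 FPKM), the adaptor Dapp1 (3.54 and 34.2) and the adaptor Grb2 (20.8 and 86.5), and the latter was the kinase Prkcb (226 and 35.3). Most of the signalling genes also act in T cells. Of the germinal centre list 3 of 10 genes were measured and 1 was 4-fold apart, Mybl1 at 0.892 and 16.1 FPKM. The plasma cell list had 2 of 10, Xbp1 at 23.3 and 37.9 FPKM and Edem2 at 21.8 and 38.7, and the early B cell list had 1 of 9, Lef1, also a T cell gene, at 183 and 245.

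Markers of other cells that carry class II, and of red blood cells, were few in the table. Of the dendritic cell list 3 of 13 genes were measured, with summed FPKM of 92.3 in the gut lymphoma and 226 in the thymic lymphoma. Of the 3, 1 was past 4-fold, the E protein gene Tcf4, at 2.87 and 105 FPKM. Tcf4 made up most of the difference between the sums. Irf8, which acts in dendritic cells and B cells, was at 78.4 and 85.6 FPKM. Of the macrophage list 3 of 14 were measured, with summed FPKM of 277 and 758, and 1, the lysozyme gene Lyz2, was 4-fold apart at 113 and 504 FPKM. The erythroid list had 4 of 12 genes measured and each was past 4-fold toward the thymic lymphoma (12.0% of all genes). The summed FPKM of the 4 genes was 2425 and 96390. These were the globin genes Hbb-bs (1916 and 92068 FPKM), Hbb-bt (30.3 and 1121), Hba-a1 (194 and 1444) and Hba-a2 (283 and 1756), whose near-identical copies can share reads. The thymic epithelium list had 2 of 9 genes, with summed FPKM of 104 and 79.4. They were Ccl25 (39.1 and 19.8 FPKM) and Epcam, which was nearly level (65.1 and 59.6), and neither was past 4-fold. The defining genes Flt3, Itgax, Csf1r and Foxn1 were listed but were not among the measured genes. All 19 listed T cell receptor and signalling genes were measured, and 18 lay above 0, as did 4238 of all 8245 genes. Past 4-fold toward the gut lymphoma were 5, where 7.84% of all genes were. The median of the 19 genes was 1.31 and their summed FPKM 7376 and 3759. The 5 were the surface genes Cd6 (243 and 22.7 FPKM), Cd4 (109 and 18.8) and Thy1 (305 and 56.9), the kinase gene Zap70 (129 and 17.3) and the receptor constant region Trbc1 (167 and 25.7), which is similar in sequence to Trbc2. The part of any of these cells in the class II and B cell values was not tested.

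**Figure D4:**
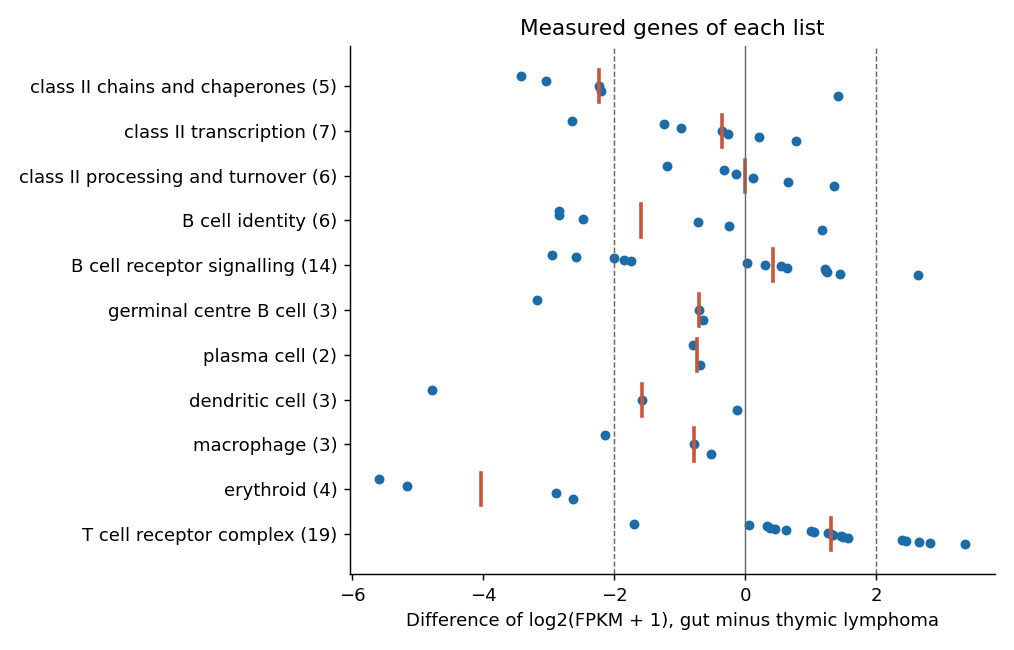
Each point is a measured gene of a list, placed by its log2(FPKM + 1) in the gut lymphoma minus the thymic lymphoma; the number measured stands in brackets, the upright bar is the median of the list and dashed lines mark 4-fold. The median is -2.23 for class II chains and chaperones, -4.02 for erythroid genes, -0.01 for class II processing and 1.31 for the T cell receptor complex.

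The 5 genes nearest in level to the mean of Cd74, H2-Aa and H2-Ab1 were found by distance in the 2 log2 values, so the likeness rests on 2 libraries. They were Frmd4b (62.3 and 475 FPKM in the gut and thymic lymphomas), the ribosomal pseudogene Rps12-ps19 (66.5 and 408), the lysosomal sulfatase Arsb (58.7 and 735), the polyamine enzyme Sat1 (53.2 and 473) and the translation regulator Gcn1l1 (90.7 and 770). Their distances were 0.34 to 0.54, against 0.37 for Cd74, 0.70 for H2-Aa and 1.06 for H2-Ab1 itself.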

How the data were processed

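RNA was measured in 2 tumours. Per the labels' protocols, tumours were lysed and mRNA libraries were stranded, while the series design text speaks of sorted cells, so the purity of the tumour cells is not settled here. The submitters' processing notes name build mm9 and GATK, Picard, TopHat and Cufflinks; neither versions nor annotation nor gene filter is given in the sources used here.

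Per the file headers, the authors deposited FPKM and a standard score per gene and library. The FPKM columns were read as log2(FPKM + 1), as deposited by the authors: they reach 20.65, and the lowest gut value is 6.99 double-precision steps on that scale (close to a whole number) but 10.09 if read as a natural logarithm. The lowest thymic value, at 6306 steps, is printed with too few digits to discriminate. The design had assumed linear FPKM. The deposited score is linear in the log2 value of its library and was used only as an alternative. A score of 0 falls at a log2 value of 3.91 in the gut and 4.54 in the thymic lymphoma. The median levels of the table were 31.2 and 32.6 FPKM. Whether the scores were computed over more genes than the table holds was not tested. Every listed gene was above 0 in both libraries. Depth is unknown, so counting error cannot be given.

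Python 3.11.15 with numpy 2.4.6, pandas 2.3.3 and matplotlib 3.10.9 was used. The filter was 1 FPKM in at least 1 library, the pseudocount 1 and the threshold 4-fold. The text names the 8 members, the genes nearest to the classical class II genes, the 4-fold members of 15 gene lists (87 of 194 distinct symbols measured) and some of the more abundant others. Counts of listed genes are counts of symbols, and some genes were listed under 2 symbols. Some row names of the expression table are dates, so the listed genes March1 and March8 could not be found by symbol. Rfx5 and Nfyc were named outside this rule, after their values were seen. Members and lists were chosen with earlier results of these data known. GENCODE M21 and RefSeq are on GRCm38, another build than mm9, and were used for gene order, overlap and promoter sequence only. No exon of a member overlaps another gene on its strand, except that Cd74 hosts a microRNA. Alternatives were other pseudocounts, filters, thresholds, scalings, the standard score and other T cell references.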

Additional observations from a re-analysis of the deposited data

How the results depend on the processing

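The direction of all 8 differences between the tumours held under the 6 alternatives run for them (pseudocounts of 0.1 and 5, the median ratio, the upper quartile, the total and the standard scores), and 46 of 48 values stayed on their side of 4-fold. Rescaling to the same total moved the median of all genes to 0.57, H2-Ab1 to -1.69, Cd79b to -1.93 and the median of the 8 genes to -1.81, and left 3 genes past 4-fold toward the thymic lymphoma. Those totals are weighted by very high mitochondrial genes such as mt-Ts1. Under the standard scores the median of all genes was 0.48. At 8-fold 2 of the 8 genes were higher in the thymic and 0 in the gut lymphoma, and at 2-fold 6 and 2. Relative to Cd3e in place of Trac the log2 differences were -1.75 for H2-Aa, -0.54 for H2-Ab1, -1.35 for Cd74, -0.79 for Cd79b, -0.036 for Ighm and -1.07 for Igkc, all short of 4-fold, and 3.17 for H2-Ob and 2.89 for Cd72, both past it. Ighm was at -1.80 relative to Cd3d. H2-Ob reversed to -0.11 relative to Cd3g and -0.95 relative to Thy1, and Cd72 to -0.39 relative to Cd3g, -0.17 to Cd247, -1.23 to Thy1 and -0.11 to the geometric mean of the T cell receptor list. These shifts follow from the references' own levels. Of the 81 other listed genes measured, 8 were past 4-fold toward the gut lymphoma (7.84% of all genes) and 16 toward the thymic lymphoma (12.0%). At 2-fold the counts were 22 and 24, where 24.7% and 25.5% of all genes were. At 8-fold they were 2 and 5, where 165 of 8245 genes and 5.07% were. With equal totals they were 11 and 12, where 14.5% and 7.77% of all genes were. No paired analysis was possible because each group has 1 library.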

Other observations

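MHC class I genes, which present peptides from the cytosol and are made by nearly all cells, were set beside class II. Of 13 listed genes 11 were measured, 8 lay below 0, as did 4007 of all 8245 genes, and the median difference was -0.65. Past 4-fold toward the thymic lymphoma were H2-Q7 (3.07 FPKM in the gut lymphoma and 79.8 in the thymic lymphoma) and H2-Q4 (186 and 765), non-classical class I genes of a multigene family whose similar copies can share reads, so both values are uncertain. Past 4-fold toward the gut lymphoma were Psmb8, a subunit of the immunoproteasome (318 and 38.1 FPKM), and Tap2, which helps move peptides into the endoplasmic reticulum (117 and 15.7). The classical heavy chains H2-K1 (338 and 476 FPKM) and H2-D1 (148 and 233) were closer between the tumours than H2-Aa, and the light chain B2m was at 2036 and 5572 FPKM. Of 8 listed costimulatory genes of antigen-presenting cells 1 was measured, Cd274, which encodes PD-L1, at 118 and 222 FPKM.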
